A study of Mus musculus with 2 samples.

Results

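The S100 genes encode small proteins, most of them calcium-binding, and the 10 examined here are *S100a1*, *S100a4*, *S100a6*, *S100a8*, *S100a9*, *S100a10*, *S100a11*, *S100a13*, *S100a14* and *S100a16*. They were taken by name from 19550 genes in the files. All 10 were present and together held 458964 UMIs (unique molecular identifiers, each standing for 1 captured RNA molecule), or 0.426% of all UMIs. Their levels were followed in cells of the mouse esophagus, the gastroesophageal squamocolumnar junction (GE-SCJ, where the stratified squamous lining of the esophagus and forestomach meets the columnar lining of the stomach) and the stomach.

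Cells came from wild type C57BL/6 mice at embryonic day 15 (E15), at E19, as pups of 2 days and as adults of 8 weeks, and the labels name no transgene or treatment. The sample labels give 6 mice at E15, 2 at E19, 2 pups and 3 adults, whereas the methods state that 3 mice were combined. Each region and stage carried its own oligonucleotide tag (10x Genomics CellPlex), all cells were sequenced in 1 pooled library, and the animal of origin is unknown for every cell, so that a region at a stage counts as 1 pooled sample without replicates and no difference between groups was tested. The files hold 7808 cells from 11 region and stage groups (143 to 1403 cells and 2302227 to 20070615 UMIs each, and a median of 10424.5 UMIs per cell), with no adult stomach cells among them. The level of a gene in a group of cells is its summed UMIs per 1000000 UMIs of that group (CPM), with an exact 95% Poisson interval. Log2 ratios have 1 UMI added to each sum and exact 95% intervals. All intervals cover counting error and not the spread between mice. Only groups of at least 20 cells were used, which gave 55 combinations of cell label, region and stage.

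S100 proteins pair into dimers, and most of them, though not all, expose a surface that grips other proteins on binding calcium. *S100a10* is held in a complex with annexin A2 at the cell membrane, *S100a11* binds annexin A1, and *S100a6* binds the ubiquitin ligase partner *Cacybp*. *S100a8* and *S100a9* form calprotectin, the metal-binding antimicrobial complex that fills the cytoplasm of neutrophils and also appears in inflamed squamous epithelium. *S100a4* is used as a marker of fibroblasts and of some leukocytes, *S100a1* regulates calcium cycling in muscle, *S100a13* takes part in the release of fibroblast growth factor, and *S100a14* and *S100a16* are known from epithelia.

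All 10 genes lie on chromosome 3 of GRCm38 (GENCODE M21). *S100a1* (90511034-90514392, minus strand), *S100a13* (90514435-90524581, plus), *S100a14* (90526856-90528837, plus), *S100a16* (90537254-90543151, plus), *S100a4* (90603771-90606045, plus), *S100a6* (90612882-90624181, plus), *S100a8* (90668978-90670035, plus) and *S100a9* (90692632-90695721, minus) share a stretch of 184.7 kb. *S100a11* (93520488-93526287, plus) and *S100a10* (93555080-93564643, plus) stand 2.83 Mb further on. No gene of the 10 overlaps another, but *S100a1* and *S100a13* start 42 bases apart on opposite strands by the outer ends of their annotated transcripts. Promoter windows of 300 bases (250 before and 50 after a RefSeq start, GRCm38.p6) were found for 8 of the 10, with none for *S100a10* and *S100a14*.

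The bases upstream of *S100a8* and *S100a9* are shown because these genes had nearly the same pattern over groups, those of *S100a4* because its low level was broken by a few groups, those of *S100a11* because it shared its pattern with *S100a6*, and the stretch between the starts of *S100a1* and *S100a13* because these head-to-head neighbours had different patterns. Capitals mark TATAAA, the TATA box core, in *S100a8* and *S100a4*, and TGANTCA, the AP-1 site, in *S100a11*. The upstream bases read 5′ to 3′ on the strand of the gene and end just before its RefSeq start, and the stretch between neighbours reads on the plus strand. The RefSeq starts used for *S100a8*, *S100a11* and *S100a1* lie inside the GENCODE spans given above. The last printed bases of *S100a8* and *S100a11* are therefore within the GENCODE gene. So are the first printed bases of the stretch between neighbours, within that of *S100a1*.
*S100a8* (chr3:90668821-90669070, plus): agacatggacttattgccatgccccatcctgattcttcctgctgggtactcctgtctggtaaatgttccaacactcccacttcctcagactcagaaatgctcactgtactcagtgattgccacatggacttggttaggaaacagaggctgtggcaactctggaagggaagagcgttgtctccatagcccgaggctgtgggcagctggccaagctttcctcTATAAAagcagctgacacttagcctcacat
*S100a9* (chr3:90695722-90695971, minus): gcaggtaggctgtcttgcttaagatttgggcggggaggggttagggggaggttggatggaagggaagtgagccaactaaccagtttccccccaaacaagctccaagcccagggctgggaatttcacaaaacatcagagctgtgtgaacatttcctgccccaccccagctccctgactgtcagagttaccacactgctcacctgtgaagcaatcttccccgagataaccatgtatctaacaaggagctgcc
*S100a4* (chr3:90603520-90603769, plus): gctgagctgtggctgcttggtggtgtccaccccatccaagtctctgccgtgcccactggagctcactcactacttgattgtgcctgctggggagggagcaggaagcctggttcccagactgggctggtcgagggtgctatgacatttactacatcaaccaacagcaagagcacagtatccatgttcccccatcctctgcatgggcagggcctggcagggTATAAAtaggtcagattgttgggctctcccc
*S100a11* (chr3:93520246-93520495, plus): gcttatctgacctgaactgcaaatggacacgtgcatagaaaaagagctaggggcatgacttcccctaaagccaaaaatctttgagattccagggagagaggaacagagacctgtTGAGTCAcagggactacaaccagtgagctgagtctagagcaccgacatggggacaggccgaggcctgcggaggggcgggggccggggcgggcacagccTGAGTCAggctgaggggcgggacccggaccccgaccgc
*S100a1* to *S100a13* (chr3:90514331-90514434, plus): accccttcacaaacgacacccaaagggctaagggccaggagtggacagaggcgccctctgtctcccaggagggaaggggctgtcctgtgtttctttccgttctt

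TATAAA, searched on both strands, began 30 bases before the RefSeq start of *S100a8* and 31 bases before that of *S100a4*. In the window of *S100a9* it began at the annotated start itself, outside the printed bases. It was found in 13.6% of 32851 promoter windows. TGANTCA, which reads the same on both strands, was found in the window of *S100a11*, beginning 136 and 38 bases before the start, and in 1 of the pair of *S100a16* windows, and in 7.81% of all windows. Neither motif was in the windows of *S100a1*, *S100a13* or *S100a6*. A match is only a match of letters.

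The deposited cell labels were checked against marker lists. The summed level of squamous keratin markers was 18329 CPM in squamous cells and 92.7 CPM in columnar cells, and each of the fibroblast, smooth muscle, immune and endothelial lists was highest in the label of its name. A small second squamous label of 40 cells (29 of them from the pup esophagus) had squamous markers at 10283 CPM with *Trp63*, a basal cell regulator, at 0 UMIs, and mesothelial markers at 4421 CPM with *Wt1* and *Lrrn4* at 0. A second stromal label of 139 cells held both fibroblast markers (7606 CPM) and mesothelial markers (2560.5 CPM). These are called squamous-2 and second stromal. The main stromal label is called fibroblast.

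The 10 genes fell into a few patterns over the 9 labels. *S100a14* and *S100a16* were highest in the squamous labels, *S100a6*, *S100a11* and *S100a10* were found in every label with peaks in squamous-2 cells, and *S100a8* and *S100a9* were almost confined to immune cells by UMIs. *S100a1*, *S100a13* and *S100a4* were low with separate peaks. *S100a6* ranked 67th of all genes by total UMIs (252987) and *S100a4* ranked 8913th (1293 UMIs). UMIs of the 10 genes made up 2.76% of all UMIs in squamous-2 cells, 1.04% in immune cells, 0.719% in squamous cells and 0.109% in smooth muscle.

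**Figure D1:**
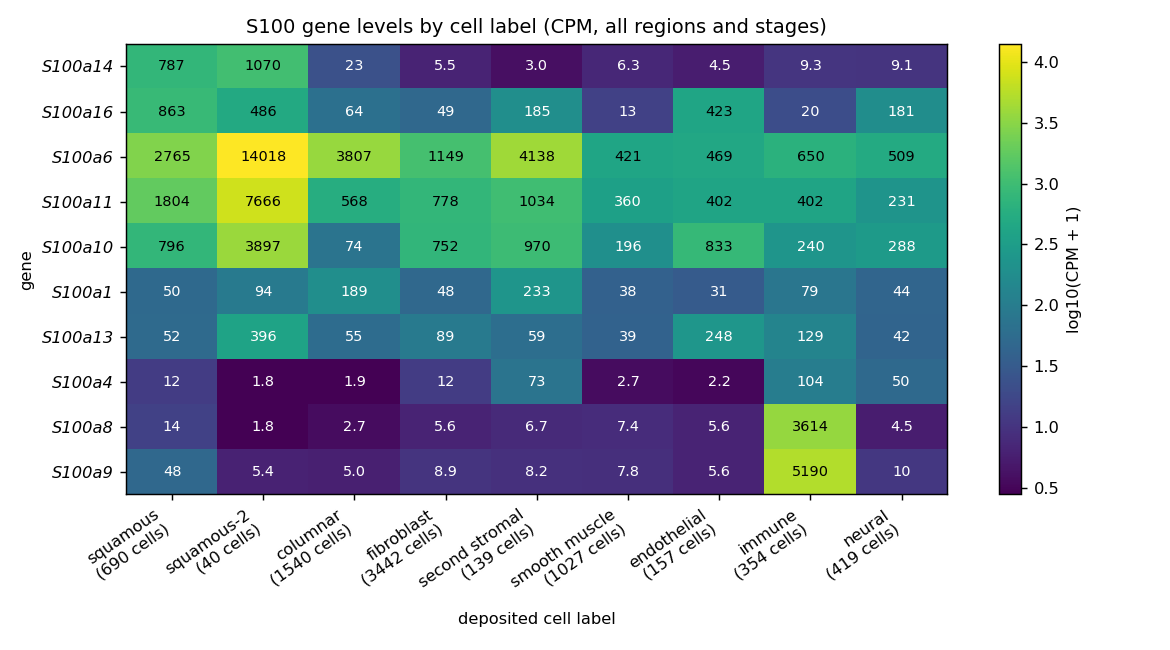
Levels of the 10 S100 genes in the 9 deposited cell labels, with cells of all regions and stages summed. Color is log10(CPM + 1) and the printed value is the CPM. *S100a14* stands at 787 CPM in squamous cells against 22.5 in columnar cells, and *S100a8* and *S100a9* reach 3614 and 5189.9 CPM in immune cells.

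*S100a14* had the largest share of its UMIs in squamous cells. Its level was 1070.1 CPM (986 to 1159.7) in squamous-2 cells and 787 CPM (770.3 to 805) in squamous cells, against 22.5 CPM (21.1 to 24) in columnar cells. In the other 6 labels it lay between 2.98 and 9.3 CPM, and neighbours in this order had overlapping intervals. The squamous and squamous-2 labels held 86.8% of its UMIs. After each cell was thinned to 2000 UMIs, 55.8% (51.9 to 59.7) of 654 squamous cells had a UMI, against 4.06% (3.13 to 5.17) of 1527 columnar cells and 1.29% (0.941 to 1.73) of 3402 fibroblasts, with 36, 13 and 40 shallower cells left out. Without thinning the shares were 86.8%, 29.2% and 4.76%, at median depths of 12028.5, 25118 and 8940 UMIs.

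*S100a16* shared the squamous peak with 863 CPM (845 to 881) but was not restricted to it. Its level was 486 CPM (430.1 to 548) in squamous-2 cells and 423 CPM (394 to 455) in endothelial cells, and these intervals overlapped. Second stromal (185 CPM) and neural cells (181 CPM) did not differ beyond counting error. Columnar cells (63.8 CPM), fibroblasts (48.7), immune cells (19.9) and smooth muscle (13.4) were lower. The ratio of *S100a14* to *S100a16* UMIs was 0.912 (0.885 to 0.941) in squamous cells and 0.0106 (0.00456 to 0.021) in endothelial cells, so the endothelial signal of *S100a16* did not come with its neighbour *S100a14*.

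*S100a6*, *S100a11* and *S100a10* were the most abundant members. *S100a6* was 14018 CPM (13708 to 14333) in squamous-2 cells, 4138 CPM (4029.9 to 4248) in second stromal cells, 3807 CPM (3788 to 3825) in columnar cells, 2765 CPM (2733 to 2798) in squamous cells and 1149 CPM (1137 to 1161) in fibroblasts, and these 5 levels differed beyond counting error. It was lowest in smooth muscle (421 CPM). *S100a11* was 7666 CPM (7437 to 7899) in squamous-2, 1804 CPM (1778 to 1831) in squamous cells and 568 CPM (561 to 576) in columnar cells, and was lowest in neural cells (231 CPM). *S100a10* was 3897 CPM (3734 to 4064) in squamous-2 cells, between 752 and 969.7 CPM in fibroblast, squamous, endothelial and second stromal cells, and only 74.3 CPM (71.7 to 76.9) in columnar cells. These levels pool stages that contribute unequally to each label. Stage by stage, among labels with at least 20 cells, columnar cells were the lowest for *S100a10* at E15 (66.8 CPM), E19 (78) and pup (71.1). They were also the lowest for *S100a11* in the pup (351). In the adult, with 26 columnar cells, their intervals overlapped those of smooth muscle. *S100a10* was 128 CPM (103 to 156) against 158 (115 to 212) there, and *S100a11* 708 (648 to 772) against 758 (659.5 to 868). Squamous cells were the highest label for *S100a6* at E15 (2219 CPM) and the lowest in the adult (1522 CPM), where fibroblasts had 4552 CPM.

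The squamous-2 peak rested on few cells of 1 group. In the 29 squamous-2 cells of the pup esophagus *S100a6* was 13375 CPM (95% interval 13019 to 13737), *S100a11* 8421 CPM (95% interval 8139.7 to 8709.7), *S100a10* 4339 CPM (95% interval 4137 to 4547) and *S100a13* 408 CPM (95% interval 348 to 476). In the 56 squamous cells of the same region and stage the 4 genes were at 1294, 993, 819.7 and 40.3 CPM. *S100a16* was less apart, with 413 and 328 CPM. The labels come from clustering of the same cells on genes that may include these, so the difference is a description of the label.

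*S100a1* and *S100a13* start side by side but peaked in different cells. Levels of *S100a1* reached 233 CPM (208 to 260.4) in second stromal cells and 189 CPM (185 to 193) in the columnar label, which held 70.8% of its UMIs, and at most 93.7 CPM in the other labels. *S100a13* was 396 CPM (346 to 452) in squamous-2 cells, 248 CPM (226 to 272) in endothelial cells and 129 CPM (118 to 141) in immune cells. These levels pool stages. By stage, among labels with at least 20 cells, *S100a13* had its highest value in endothelial cells throughout, but not always beyond counting error. In the pup the endothelial interval (456 CPM, 341 to 596, 21 cells) overlapped that of squamous-2 cells (406, 347 to 472). In the adult it (565 CPM, 394 to 786, 21 cells) overlapped that of fibroblasts (334, 269 to 409). The highest *S100a13* group of the 55 was adult esophageal fibroblasts (495 CPM). *S100a1* was highest in second stromal cells up to the pup, though columnar cells overlapped at E15. In the adult it was highest in smooth muscle (147 CPM, 106 to 200, 46 cells), overlapped by endothelial cells (129, 55.8 to 255, 21 cells). It was lowest in endothelial cells at E15 and E19, overlapped by smooth muscle, and in squamous cells in the pup and adult. In the pup squamous (42.8 CPM) and endothelial cells (43) overlapped. Over all stages, *S100a1* was lowest in endothelial cells (31.4 CPM, 23.8 to 40.8), overlapped by smooth muscle (38.3, 34.7 to 42.2). In endothelial cells 42.7% (34.4 to 51.2) of 143 cells thinned to 2000 UMIs had an *S100a13* UMI and 7.69% (3.9 to 13.3) had one of *S100a1*. Without thinning these shares were 79.6% and 21.7% of 157 cells, at a median depth of 9365 UMIs, and 14 shallower cells had been left out.

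*S100a4* was scarce in this tissue. Only 622 of 7808 cells had a UMI. Over all stages, levels were 104 CPM (94.1 to 115) in immune, 73 CPM (59.3 to 89) in second stromal and 49.7 CPM (42.8 to 57.3) in neural cells. Among labels with at least 20 cells at a stage, immune cells had the highest value only at E15 (109 CPM). Neural cells had it at E19 (65.9) and in the pup (266), and fibroblasts in the adult. Single cells weighed on the immune level. In the E19 esophagus 1 immune cell held all 24 UMIs, and in the E15 stomach 1 held 30 of 54. Fibroblasts, the cells *S100a4* is commonly used to mark, had 11.8 CPM (10.7 to 13) over all stages. By stage, fibroblasts and squamous cells had 8.86 and 2.1 CPM at E15, 9.99 and 5.98 at E19, 2.04 and 16.8 in pups and 308 and 17 in adults, so neither label was above the other at every stage. Over 10 fibroblast groups the level ranged from 0 to 532 CPM with a median of 6.72. The highest was the adult esophagus with 532 CPM (95% interval 426 to 657), from 86 UMIs in 11 of 31 cells. A single cell held 50 of these UMIs, and the level without it was 244 CPM.

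In neural cells *S100a4* was higher at later stages. At the GE-SCJ it was 6.58 CPM at E15 and 63.9 at E19, in the esophagus 7.22 at E15 and 447 in the pup, and in the stomach 10.6, 61.2 and 130.4 CPM at E15, E19 and pup. Other values moved with stage in this label. Neuronal markers (*Elavl4*, *Tubb3*, *Stmn2*, *Uchl1*, *Snap25*) summed over these cells to 1881, 866 and 117 CPM for E15, E19 and pup, at median depths of 9895.5, 7410.0 and 4331 UMIs a cell. Their part in the *S100a4* levels was not tested. *S100b*, the classical glial S100 gene, was 117 CPM in neural cells and at most 7.45 CPM in the other labels.

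*S100a8* and *S100a9*, the calprotectin pair, reached the highest levels of any member in any group and came from very few cells. In immune cells *S100a8* was 3614 CPM (3553 to 3675) and *S100a9* 5189.9 CPM (5117 to 5263), and this label held 96.1% and 94.5% of their UMIs. In the labels other than immune, squamous and squamous-2, *S100a8* lay between 2.71 and 7.37 CPM and *S100a9* between 4.95 and 10.2 CPM. In those labels together the UMI ratio of *S100a9* to *S100a8* was 1.56 (1.38 to 1.77), against 1.44 (1.41 to 1.47) in immune cells, and the intervals overlapped. It was 1.83 (1.45 to 2.31) in columnar cells and 1.6 (1.33 to 1.94) in fibroblasts. After thinning to 2000 UMIs, 15.5% (11.7 to 19.9) of 317 immune cells had an *S100a8* UMI, 0.999% (0.693 to 1.39) of 3402 fibroblasts and 0.589% (0.27 to 1.12) of 1527 columnar cells. The unthinned shares were 18.1%, 4.74% and 7.34%, at median depths of 8266.5, 8940 and 25118 UMIs, and 37 immune cells were too shallow to thin.

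Over immune groups the pair went up and down together. In the esophagus *S100a8* was 3487, 2196 and 15049.5 CPM for E15, E19 and pup, and *S100a9* was 5102, 4059 and 21826 CPM. In the stomach *S100a8* was 5894 and 1823 CPM at E15 and E19, and *S100a9* 8007 and 2775 CPM. The GE-SCJ stood apart at E15, with *S100a8* at 3.16 CPM (95% interval 0.0800 to 17.6) and *S100a9* at 9.47 CPM (95% interval 1.95 to 27.7) in 25 immune cells, a level like that of non-immune cells. At E19 and in the pup its immune cells had *S100a8* at 2391 and 5191 CPM and *S100a9* at 3256 and 6346 CPM.

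Nearly all of the pair came from neutrophil-marked cells. Immune cells were grouped by marker lists without S100 genes, each cell going to the list with the largest share of its genes detected and at least 2 of them needed. A neutrophil list (*Retnlg*, *Csf3r*, *Cxcr2*, *Mmp8*, *Mmp9*, *Camp*, *Ltf*, *Ngp*) took 37 of 354 immune cells and a macrophage list 263. The 37 cells had *S100a8* at 52798 CPM (51912 to 53696) and *S100a9* at 76102 CPM (75038 to 77178), and held 99.4% and 99.8% of the UMIs of the label. Their counts per cell ran from 0 over a median of 307 to 2175 for *S100a8* and from 0 over 448 to 3004 for *S100a9*, with 3 and 4 cells at 0. The 263 macrophage-list cells had *S100a8* at 20 CPM (15.3 to 25.6) and *S100a9* at 9.2 CPM (6.16 to 13.2). The GE-SCJ at E15 had 0 neutrophil-list cells of 25 immune cells (exact 95% interval 0 to 13.7%), whereas the esophagus had 4 of 26 and the stomach 3 of 31 at that stage. The pup esophagus had 8 of 39 (20.5%, 9.30 to 36.5) and the pup GE-SCJ 6 of 30. The adult groups held 6 immune cells in all and 0 on the neutrophil list, so the adult state was not measured.

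**Figure D2:**
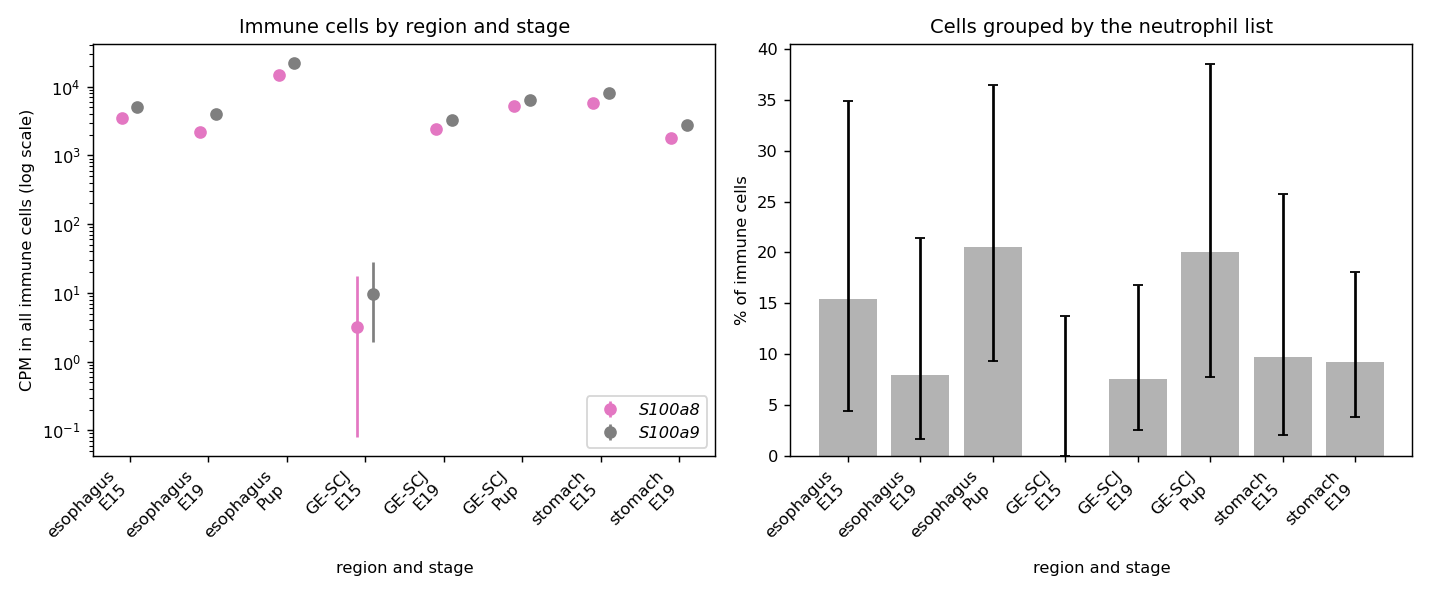
Left, CPM of *S100a8* and *S100a9* (log axis) in all immune cells of each region and stage with at least 20 such cells, with 95% Poisson intervals. Right, percent of immune cells grouped by the neutrophil list, with exact 95% intervals. The E15 GE-SCJ, with 0 of 25 such cells, is the one group where both genes stay under 10 CPM.

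The neutrophil-list cells differed from macrophage-list cells in other members too. *S100a6* was 2010.3 CPM (1840.4 to 2192) against 493 CPM (469 to 518) and *S100a11* 2611 CPM (2417 to 2817) against 196 CPM (180.5 to 212), whereas *S100a10* was lower at 117 CPM (79 to 167) against 199 CPM (184 to 215). *S100a4* was 58.5 CPM (32.8 to 96.6) and 59.9 CPM (51.7 to 69.1) and did not differ beyond counting error. This likeness depended on the grouping. With at least 3 list genes needed, *S100a4* was 13.9 CPM (2.88 to 40.8, from 3 UMIs) in 32 neutrophil-list cells. The 247 macrophage-list cells then had 47.3 CPM (39.9 to 55.7). Returning to at least 2 list genes, the cells without a list were above the neutrophil-list and macrophage-list cells for *S100a4*. In 39 immune cells on no list it was 765 CPM (631 to 918). Their median depth was 1734 UMIs, against 9624 in macrophage-list cells. The 8 cells on a dendritic cell list, fewer than the 20 needed elsewhere, had *S100a4* at 943 CPM (720 to 1214).

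*S100a9* was also detected in adult esophageal squamous cells, where 192 of 232 cells had 0 UMIs of it and a few cells held most. *S100a9* was 129 CPM (95% interval 117 to 142) and *S100a8* 29 CPM (95% interval 23.4 to 35.5) there, against 3.05 and 7.12 CPM at E15. Their ratio was 4.44 (3.54 to 5.62), above the 1.44 (1.41 to 1.47) of immune cells. Of 232 cells, 9 with at least 5 *S100a9* UMIs held 363 of 413 *S100a9* UMIs (87.9%) and 78 of 93 *S100a8* UMIs. Those 9 cells had 0 UMIs of *Ptprc*, *Tyrobp*, *Fcer1g*, *Cd52* and *Laptm5*, the pan-immune list, and, of the neutrophil list, 8 of *Cxcr2* and 1 of *Ltf*, with the other 6 genes at 0. Across the whole group *Cxcr2* had 25 UMIs and *Ltf* 24, *Camp* and *Ngp* 4 each, and *Retnlg*, *Csf3r*, *Mmp8* and *Mmp9* 0. The pan-immune genes there had 6 UMIs (*Laptm5*), 5 (*Tyrobp*), 4 (*Fcer1g*), 1 (*Cd52*) and 0 (*Ptprc*). At the adult GE-SCJ *S100a9* was 31.6 and *S100a8* 9.68 CPM.

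The stage comparison in squamous cells of the esophagus set 232 adult cells against 64 E15 cells. *S100a14* went from 290.1 to 1182 CPM, a log2 ratio of 2.02 (1.85 to 2.20). *S100a16* went from 523 to 1145 CPM, a log2 ratio of 1.13 (0.99 to 1.26). *S100a9* and *S100a8* had log2 ratios of 4.99 (3.62 to 6.87) and 1.85 (0.81 to 3.10). *S100a10* was level, at 658 and 667 CPM. Of 9 members with at least 100 UMIs over both groups, 4 were at least 2-fold higher, where 11.3% of 5293 genes were, and 0 were lower, where 18% were. Of the 4, *S100a9* (3 UMIs at E15, 413 in the adult) and *S100a8* (7 and 93) passed this filter only through the adult group. Their calls therefore add no support to the count. The median log2 ratio was 0.33 for the members and -0.38 for all genes. The member median includes *S100a8* and *S100a9* and is limited in the same way. With each cell weighted equally, the ratio of *S100a16* was 0.59, that of *S100a8* 0.58, that of *S100a14* 1.35, that of *S100a9* 4.00 and that of *S100a1* 1.01 (0.33 by summed UMIs), and *S100a6*, -0.60 (-0.67 to -0.52) by summed UMIs, turned to 0.26. Without the 1% of cells with the most *S100a8* UMIs its ratio was 0.28. Median depth was 9974 UMIs in the adult and 14214 at E15.

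Between E15 and adult the squamous course was not one-directional. Over both squamous labels of the esophagus *S100a6* stood, for E15, E19, pup and adult in turn, at 2294, 4950.3, 6284 and 1517 CPM. At the GE-SCJ it was 2164, 9227, 5778 and 1538 CPM in the same order, highest at E19. *S100a11* had the same shape, with 1555, 3076, 4061 and 1137 CPM in the esophagus and 1988, 3944, 1960.2 and 1654 CPM at the GE-SCJ. *S100a10* peaked in the pup esophagus (2273 CPM) and was 1532 CPM at E19. Without the 29 squamous-2 cells, pup esophageal squamous cells had *S100a6* at 1294, *S100a11* at 993 and *S100a10* at 819.7 CPM, so the pup values of the esophagus rest on that label. *S100a14* and *S100a16* were instead highest in the adult at both sites, at 1182 and 1145 CPM in the esophagus and 1009 and 991 CPM at the GE-SCJ. Their UMI ratio in the squamous label of the esophagus was 0.554 (0.478 to 0.642) at E15 and 1.03 (0.986 to 1.08) in the adult. At the GE-SCJ it was 0.7 (0.603 to 0.811) at E15 and 1.115 (0.94 to 1.323) at E19. It was 0.684 (0.578 to 0.807) in the pup and 1.02 (0.95 to 1.095) in the adult there, so it did not rise steadily.

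**Figure D3:**
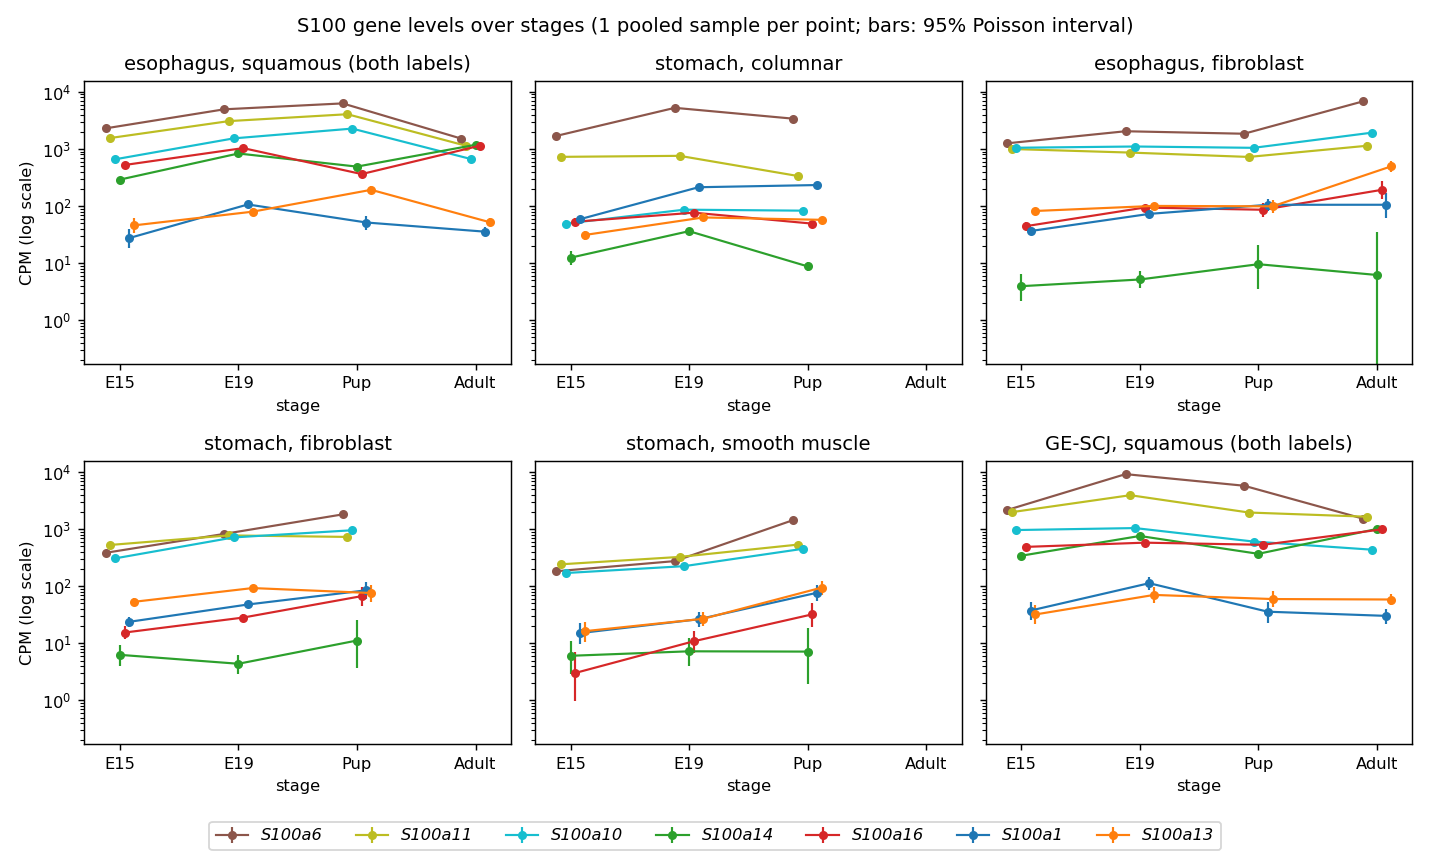
CPM on a log axis against stage for 7 S100 genes in 6 combinations of region and cell label, 1 pooled sample per point, with 95% Poisson intervals. *S100a6* rises from 183 to 1449 CPM in stomach smooth muscle and from 386 to 1818 CPM in stomach fibroblasts, while squamous cells of the GE-SCJ are highest at E19.

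Within the adult esophageal epithelium the members separated by differentiation. The 219 squamous cells with at least 20 UMIs over the lists were ranked by the share of suprabasal markers (*Krt4*, *Krt13*, *Sbsn*, *Krtdap*, *Lor*, *Spink5*, *Tgm3*) among those plus basal markers (*Krt5*, *Krt14*, *Krt15*, *Trp63*, *Col17a1*). In 3 equal bins of 73 cells, from the most basal to the most suprabasal, *S100a14* rose from 264 CPM (226 to 306) over 487 to 1849 CPM (1786 to 1914), a log2 ratio of last over first of 2.80 (2.58 to 3.03). *S100a16* rose from 377 CPM (332 to 427) to 1693 CPM (1633 to 1755), a ratio of 2.16 (1.98 to 2.35). *S100a6* went the other way, from 3095 CPM (2962 to 3232) over 2526 to 462 CPM (430.4 to 495), a ratio of -2.74 (-2.86 to -2.63). *S100a10* and *S100a13* were also lower in the last bin, with ratios of -1.04 (-1.19 to -0.88) and -1.79 (-2.35 to -1.23), and *S100a11* moved little at -0.15 (-0.27 to -0.02). *S100a9* was 10.6, 6.49 and 229 CPM. Median depth was 7750, 9153 and 19503 UMIs in the bins, and its part in these values was not tested.

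The same opposition was seen cell by cell in the adult and not at E19. Over 232 adult esophageal squamous cells Spearman's rho of per-cell levels was 0.73 for *S100a14* with *S100a16*, -0.46 for *S100a6* with *S100a14* and -0.47 for *S100a6* with *S100a16*. Over 120 squamous cells of the E19 esophagus the same pairs had rho of 0.72, 0.43 and 0.45. The cells share 1 library and the levels of a cell share its depth, and the difference was not tested.

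In columnar cells of the stomach, 351 pup cells were set against 140 E15 cells. *S100a1* rose from 58.8 to 233 CPM, a log2 ratio of 1.98 (1.79 to 2.18). *S100a6* went from 1691 to 3390.3 CPM (log2 ratio 1.00, 0.97 to 1.04), with 5254 CPM at E19 between them. *S100a11* fell from 727 to 335 CPM (log2 ratio -1.12, -1.19 to -1.05). Of 7 members tested against the threshold, 2 were at least 2-fold higher, where 8.97% of 9333 genes were, and 1 was lower, where 19% were. The member median was 0.75 and the median of all genes -0.36. *S100a6* and *S100a11* lay near the threshold: *S100a6* was under 2-fold under 4 of the 5 alternatives with another weighting, cell set or library size, down to 0.78, and *S100a11* was -0.99 once cells under 1000 UMIs or above 10% mitochondrial UMIs were dropped.

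Most of the *S100a6* of pup stomach columnar cells was in the cells highest for pit markers. Ranked by the share of pit markers (*Gkn1*, *Gkn2*, *Tff1*, *Muc5ac*, of surface mucous cells) among those plus gland markers (*Pgc*, *Muc6*, *Atp4a*, *Atp4b* and intrinsic factor, of chief, neck and parietal cells), 350 cells gave *S100a6* at 379 CPM (361 to 398), 963 CPM (932 to 995) and 10038 CPM (9931 to 10147) in 3 equal bins from the lowest to the highest share, a log2 ratio of 4.73 (4.65 to 4.80). *S100a10* was 14.3 CPM (10.9 to 18.3), 42.3 CPM (36 to 49.4) and 218 CPM (202 to 234), so it was present in the pit-marked cells of a label in which its mean level was low. *S100a11* had a ratio of 1.89 (1.77 to 2.02) and *S100a13* of 1.15 (0.87 to 1.43). *S100a1* was spread over all bins, at 178, 285 and 246 CPM, and *S100a16* (log2 ratio 0.13, -0.16 to 0.41) did not differ beyond counting error. The share of pit marker UMIs ran from 0 to 0.701% in the first bin and from 4.02% to 99.9% in the last. Median depth was 33075, 29810 and 25131 UMIs.

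**Figure D4:**
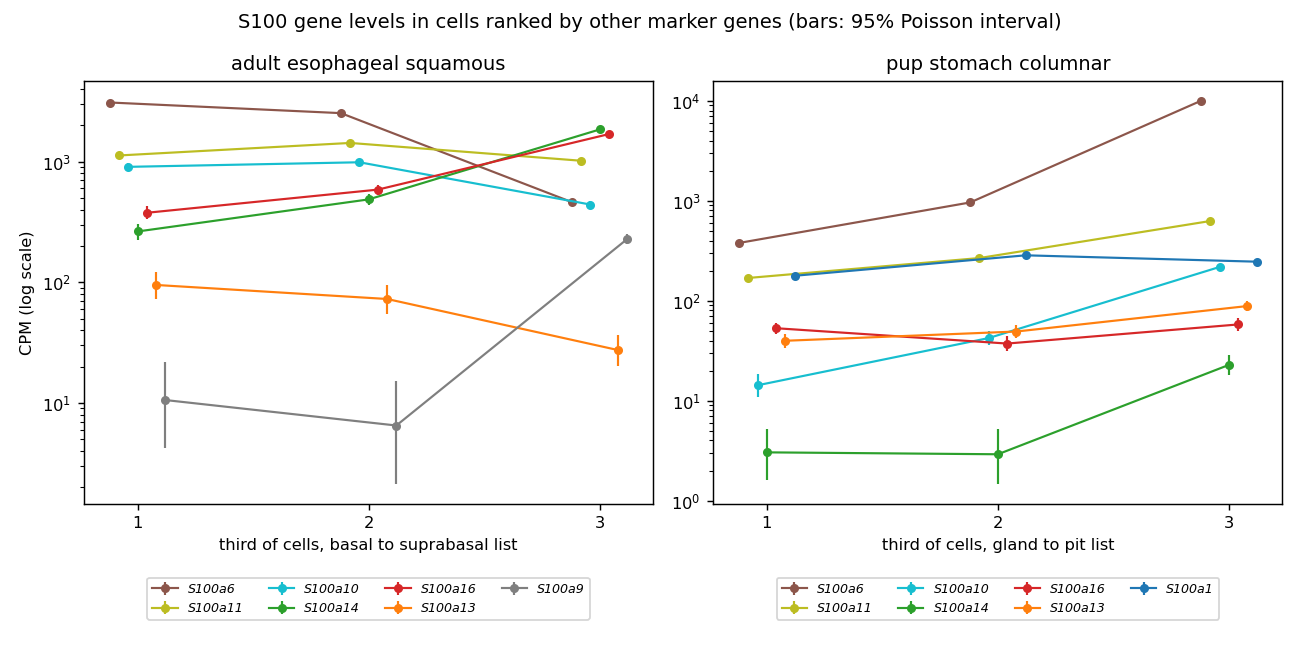
CPM (log axis) of 7 S100 genes per panel in 3 equal bins of cells ranked by markers that are not S100 genes, with 95% Poisson intervals. *S100a6* falls from 3095 to 462 CPM toward suprabasal cells while *S100a14* rises from 264 to 1849, and *S100a6* rises from 379 to 10038 CPM toward pit-marked cells.

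In fibroblasts *S100a6* was higher after E15 at every site. In the stomach it was 386, 827 and 1818 CPM for E15, E19 and pup, a log2 ratio of pup over E15 of 2.24 (2.11 to 2.36). At the GE-SCJ it was 588, 890.4 and 1943 CPM, and in the esophagus 1254, 2043, 1847 and, in the adult, 6796 CPM. *S100a10* rose in the stomach from 308 to 958 CPM (log2 ratio 1.64, 1.48 to 1.80) and *S100a1* from 23.8 to 85.1 CPM (log2 ratio 1.86, 1.28 to 2.41), whereas *S100a11* had a ratio of 0.47 (0.30 to 0.64) and *S100a13* of 0.55 (-0.02 to 1.07). Of 5 members with enough UMIs, 3 were at least 2-fold higher in the pup stomach, where 6.88% of 6539 genes were, and 0 lower, where 10.5% were. Their median was 1.64, against -0.14 for all genes. *S100a1* had under 100 UMIs at E15 and passed the minimum only with the pup cells, so its call adds no support to the count. The member median includes it and is limited in the same way.

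Adult esophageal fibroblasts (31 cells) against those of E15 (347 cells) had 5 of 7 members at least 2-fold higher, where 11.7% of 5927 genes were, and 0 lower, where 16% were. *S100a6* had a log2 ratio of 2.44 (2.34 to 2.53), *S100a13* of 2.61 (2.24 to 2.97), *S100a16* of 2.15 (1.56 to 2.70) and *S100a1* of 1.60 (0.80 to 2.31), and *S100a4* of 5.61 (5.06 to 6.18), or 4.97 without the top 1% of cells for this gene. *S100a10*, from 1049.7 to 1931 CPM, stayed under 2-fold, and *S100a11* was 998 and 1139 CPM. The member median was 2.15 and that of all genes -0.08. *S100a4* had 41 UMIs at E15 and 86 in the adult, and so passed the minimum only with the adult cells. Its call therefore adds no support to the count, and the member median includes it. Other values moved too. Median depth was 10573 UMIs at E15 and 4906 in the adult. The fibroblast list went from 22360 to 33899 CPM and the smooth muscle list from 1439 to 421 CPM. Their part in these differences was not tested.

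In stomach smooth muscle *S100a6* went from E15 to pup from 183 to 1449 CPM (log2 ratio 2.98, 2.79 to 3.17). *S100a10* went from 171 to 453 CPM (log2 ratio 1.41, 1.16 to 1.66) and *S100a11* from 243 to 537 CPM (log2 ratio 1.15, 0.93 to 1.37). All 3 members with enough UMIs were at least 2-fold higher, where 10.2% of 3660 genes were, and 0 lower, where 12.5% were. Their median was 1.41, against -0.13 for all genes. At the GE-SCJ smooth muscle *S100a6* was 162 and 1554 CPM at these stages, and in the esophagus 228 and 898 CPM. In the stomach *S100a1* and *S100a13* pointed the same way on fewer UMIs, from 15.1 to 77 and from 16.3 to 94.9 CPM.

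Other values moved with these stromal differences. The lowest level of *S100a6* in any label was 158 CPM (endothelial) at E15, 271 CPM (smooth muscle) at E19 and 642 CPM (immune) in the pup, and for *S100a11* it was 156 at E15 (neural) and 351 in the pup (columnar). From E15 to pup the columnar marker list went from 743 to 2533 CPM in stomach fibroblasts and from 624 to 1365 CPM in stomach smooth muscle, with all 6 of its genes above 0. In smooth muscle the fibroblast list went from 2838 to 8135 CPM, the red blood cell list from 5912 to 335 CPM and the smooth muscle list itself from 31135 to 21939 CPM. In stomach fibroblasts the fibroblast list went from 8921 to 18391 CPM and the smooth muscle list from 802 to 1198 CPM. Median depth went from 9858 to 5072.5 UMIs in stomach fibroblasts and from 13329 to 4586 UMIs in smooth muscle. Their part in these differences was not tested. *S100a14*, at 6.29 and 11.2 CPM in stomach fibroblasts, rested on 24 and 5 UMIs.

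At the GE-SCJ squamous and columnar cells were compared with 47 and 53 cells at E15 and 46 and 291 cells in pups. *S100a14* was 343 against 14.3 CPM at E15 and 370.3 against 12.2 in the pup, log2 ratios of 4.51 (3.86 to 5.24) and 4.91 (4.58 to 5.26). *S100a10* was 967 against 71 and 608 against 54.9 CPM, ratios of 3.75 (3.45 to 4.07) and 3.47 (3.27 to 3.67). *S100a16* had ratios of 3.13 (2.78 to 3.51) and 3.21 (3.01 to 3.41), and *S100a11* of 1.59 (1.47 to 1.71) and 2.43 (2.33 to 2.52). *S100a1* was the one member lower in squamous cells, with ratios of -1.13 (-1.72 to -0.57) and -2.52 (-3.15 to -1.96). At E15 its ratio was -0.75 with each cell weighted equally. *S100a6* was under 2-fold at both stages, 0.09 (0.00 to 0.17) and 0.64 (0.59 to 0.69).

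At E15 4 of 6 members were at least 2-fold higher in squamous cells, where 3.58% of 3548 genes were, and 1 was lower, where 6.09% were. Of the 4, *S100a10*, *S100a14* and *S100a16* had 94, 19 and 73 UMIs in columnar cells. They reached 100 only through the squamous cells, so their calls add no support to the E15 count. In the pup 4 of 7 were higher, where 7.85% of 7583 genes were, and 1 was lower, where 16.3% were. The 1 lower at each stage was *S100a1*, with 34 UMIs in squamous cells at E15 and 24 in the pup. It reached 100 only through the columnar cells, so its calls add no support to these counts. The member medians were 2.36 and 2.43, against -0.08 and -0.06 for all genes. The E15 median includes *S100a1*, *S100a10*, *S100a14* and *S100a16*, and the pup median includes *S100a1*. The filter therefore shaped both medians, and they add no support. The 4 genes higher at E15 and in the pup were *S100a10*, *S100a11*, *S100a14* and *S100a16*. The deposited labels come from the same cells, so these ratios describe the labels.

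Fibroblasts of the esophagus and the stomach differed at E15 and not beyond 2-fold in the pup. At E15 *S100a10* was 1049.7 CPM in the esophagus and 308 in the stomach, a log2 ratio of 1.77 (1.67 to 1.86), *S100a6* had 1.70 (1.62 to 1.79) and *S100a16* 1.51 (1.07 to 1.96). The GE-SCJ lay between them for all 3 genes, at 391, 588 and 16.2 CPM, the last close to the 15.4 CPM of the stomach. *S100a11* (log2 ratio 0.91, 0.83 to 0.99), *S100a13* (log2 ratio 0.61, 0.35 to 0.87) and *S100a1* (log2 ratio 0.61, 0.22 to 1.00) were higher in the esophagus by less than 2-fold. Of 6 members 3 were at least 2-fold higher, where 2.59% of 8450 genes were, and 0 lower, where 2.45% were. Of the 3, *S100a16* had 169 UMIs in the esophagus and 59 in the stomach. It passed the minimum only through the esophagus, so its call adds no support to the count. In the pup 0 of 4 members were higher, where 3.33% of 1830 genes were, and 0 lower, where 2.08% were. There *S100a10* had a ratio of 0.13 (-0.05 to 0.30) and *S100a6* of 0.02 (-0.11 to 0.15). *S100a16*, with 54 and 30 UMIs in the pup esophagus and stomach, was under the minimum there. The fibroblast marker list was 22360 CPM in the esophagus and 8921 in the stomach at E15, and 23373 and 18391 in the pup. The smooth muscle list was 1439 and 802 CPM at E15, and 572 and 1198 in the pup. The part of these lists in the differences and the change of the ratio with stage were not tested.

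Among the rest of the family, *S100a7a*, the mouse psoriasin relative, was 117 CPM in squamous-2 and 19.6 in squamous cells, *S100g*, the vitamin D-dependent calcium carrier, was 30.1 CPM in columnar cells, and *S100a3* was 14.4 CPM in squamous-2 and 7.59 in squamous cells. *S100a5* had at most 3.35 CPM (columnar). *S100a2* and *S100z* had under 100 UMIs in all, and *S100pbp*, which encodes a binding partner of an S100 protein, was between 5.41 and 34.3 CPM. Of the fused genes, which join an S100 domain to a long repeat and belong to the cornified layer, *Rptn* was 221 CPM and *Hrnr* 32.7 CPM in squamous cells, with *Tchh* at 11. In adult over E15 esophageal squamous cells 3 of 3 of the other family and fused genes with enough UMIs were at least 2-fold higher, beside 11.3% of all genes. All 3 reached 100 UMIs only through the adult cells, so the filter fixed this direction and the count shows no enrichment. *Rptn* went from 2.04 to 637 CPM, and *Hrnr* and *S100a7a* from 0 UMIs, which allows up to 3.05 CPM, to 72.9 and 52.7 CPM. *S100g* was lower in pup than in E15 stomach columnar cells (8.14 against 18.9 CPM), as was *S100pbp* (7.09 against 15.3 CPM). In the pup GE-SCJ *S100g* had 0 UMIs (up to 4.48 CPM) in squamous and 15.7 CPM in columnar cells.

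Of the annexin partners, *Anxa1* and *Anxa2* were highest in the squamous labels. *Anxa1*, which encodes the partner of *S100a11*, reached 4720.0 CPM (4541 to 4904) in squamous-2 cells and 1158 CPM (1137 to 1179) in the squamous label and at most 122 CPM in the other labels. *Anxa2*, whose protein holds *S100a10*, was 1151 CPM in squamous-2, 843 in squamous and 213 in columnar cells. *Anxa5* was instead highest in fibroblasts (349.8 CPM), and *Anxa6* in smooth muscle (464 CPM, against 32.1 in squamous cells).

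Of 14 partner and receptor genes, 4 of 8 with enough UMIs were at least 2-fold higher in E15 GE-SCJ squamous than columnar cells (*Anxa1*, *Anxa2*, *Anxa5* and *Ahnak*) and 0 lower, beside 3.58% and 6.09% of all genes. In the pup 4 of 11 (the same 4) were higher and 1, the fatty acid receptor *Cd36*, lower, beside 7.85% and 16.3%. Over all regions and stages *Cd36* had only 60 UMIs in squamous and 5 in squamous-2 cells. It therefore passed the minimum in the pup only through the columnar cells, and its call adds no support to the count. UMIs per side are not given here for the other partner genes. Whether the minimum shaped their calls, in this and the following comparisons, was not tested. In adult over E15 esophageal squamous cells, *Ahnak*, a large scaffold bound by the *S100a10* complex, was higher (log2 ratio 1.54, 1.39 to 1.69) and *Anxa1* (log2 ratio -1.82, -1.93 to -1.70) and *Anxa6* (log2 ratio -1.34, -1.87 to -0.81) lower, of 10 genes, beside 11.3% and 18% of all genes. In adult over E15 esophageal fibroblasts *Anxa1*, *Anxa5*, *Ahnak* and *Myh9* were higher and *Anxa6* lower, of 9, beside 11.7% and 16%. In pup over E15 stomach columnar cells 1 of 12 was higher (*Cd36*) and 3 lower (*Myh9*, *Cacybp* and the basigin relative *Emb*), beside 8.97% and 19% of all genes, so these counts lay near the background. In pup over E15 stomach smooth muscle 3 of 8 were higher (*Anxa5*, *Ahnak* and *Myh9*) and 1 lower (*Cacybp*), beside 10.2% and 12.5%. For fibroblasts, 0 of 8 passed 2-fold in pup over E15 stomach, beside 6.88% higher and 10.5% lower. In esophagus over stomach, 0 of 9 passed it at E15, beside 2.59% and 2.45%, and 0 of 5 in the pup, beside 3.33% and 2.08%. The receptor *Ager* was at most 2.81 CPM in any label, *Tlr4* was highest in immune cells (33.7 CPM), *Cd36* in endothelial cells (446 CPM), *Emb* in immune cells (118 CPM) and *Bsg* was 471 CPM in columnar cells.

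Likeness of pattern was measured as Pearson's r of log2(CPM + 10) over the 55 groups, which share 1 library and, in part, cell labels. *S100a8* and *S100a9* had r = 0.99, *S100a6* and *S100a11* 0.77, *S100a14* and *S100a16* 0.70, *S100a14* and *S100a11* 0.70 and *S100a1* and *S100a6* 0.65. *S100a11* and *S100a10*, neighbours in the outlying block, had 0.59. *S100a1* and *S100a13*, whose starts are closest, had only 0.26, and *S100a4* and *S100a6*, the next of the 10 along the block with *S100a5* between them, 0.11. The lowest value was that of *S100a16* and *S100a8*, -0.40. By Spearman's rho, *S100a8* and *S100a9* had 0.57. For *S100a14* rho was 0.49 with *S100a16* and 0.41 with *S100a11* while *S100a16* and *S100a8* were at -0.26, and *S100a6* with *S100a11* had 0.77.

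**Figure D5:**
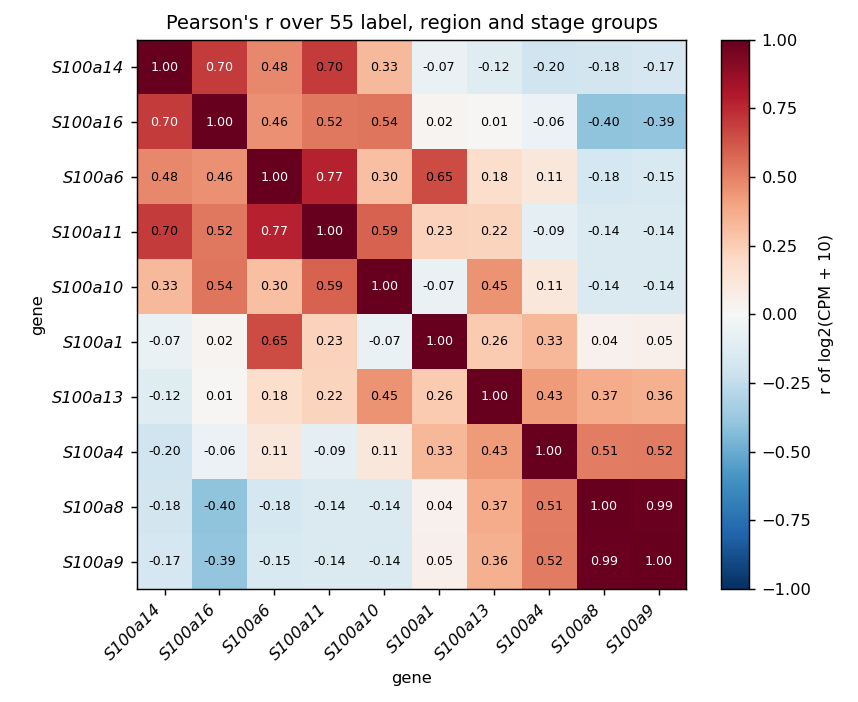
Pearson's r of log2(CPM + 10) between each pair of the 10 S100 genes over 55 groups of cell label, region and stage. *S100a8* and *S100a9* stand out at 0.99, and *S100a1* and *S100a13*, head-to-head neighbours, are at 0.26.

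Among 11672 genes with at least 500 UMIs, the 3 most like *S100a10* were *Anxa5* (0.76), *Anxa2* (0.76) and *Cast* (0.74), and the first for *S100a11* was *Anxa2* (0.82), followed by *Lratd1* and *Ppl*, a plakin of the squamous cell envelope. *S100a14* was most like *Krt13* (0.96), a suprabasal keratin, and also like *Cers3* (0.94). *S100a16* came with *Fam129b* (0.80), *Fzd6* and *Cd9*, and *S100a6* with *Myo1d* (0.80), *Tmbim1* and *Krt19*, a keratin of simple epithelia. *S100a8* and *S100a9* each had *Cstdc5* first (0.99 and 0.99), a cystatin-domain gene, and each other second, followed by *Stfa2l1* and *Stfa1*. For *S100a1* the genes were *Mucl3* (0.69), *Agtrap* and *Cd82*, for *S100a13* *Cflar* (0.83), *Zc3hav1* and *Clec2d*, and for *S100a4* *Paqr7* (0.77), *Gatm* and *Tmem50a*. *S100a11* had r = 0.79 with *Anxa1*, and *S100a6* had -0.48 with its partner *Cacybp*. The order depends on the measure: by Spearman's rho *S100a14* had 0.47 with *Krt13* and 0.69 with *Cers3*, *S100a8* 0.33 with *Stfa2l1* and *S100a4* 0.55 with *Paqr7*, whereas *S100a10* had 0.79 with *Anxa2*. *Anxa6* had r = -0.63 with *S100a14* and -0.57 with *S100a6*.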

How the data were processed

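Cells were processed and tagged by the authors with 10x Genomics CellPlex and sequenced as 1 pool. Per the submitters' processing notes, Cell Ranger 6.1.1 and the mm10 build were used. The authors deposited raw UMI counts of each gene and cell without normalization, after their own screen for likely doublets and poor cells, and no doublet caller was run here. The percent of mitochondrial UMIs per cell (at most 19.7%), the UMI counts per cell, the tag and the label were deposited by the authors. Both tag lists and the summed UMIs matched for all 7808 cells.

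Here UMIs were summed per deposited label, region and stage in groups of at least 20 cells. With 1 pooled sample per group no test was run. A gene counted as higher or lower past 2-fold, if both groups together held 100 UMIs or more of it. Intervals at 95% are Poisson for CPM, Clopper-Pearson for shares and conditional on the sum for ratios; a sum of 0 allows 3 counts. PCR copies were collapsed by UMI. Comparisons joined the squamous labels. Shares were thinned to 2000 UMIs (seed 1). Ranked cells needed at least 20 UMIs over their lists. Immune cells needed 2 genes of a list, and ties were left out. The 3 genes most like each member were named, apart from an item that is not reported here, and other family members with at least 100 UMIs; *S100a2* and *S100z* were named beside them. The members and lists were chosen with earlier results of these data known. The ratio code was tested on simulated data. Alternatives changed the weighting, cell and gene filters, library size and thresholds. Positions are those of GENCODE M21 and sequences those of RefSeq. Per-cell rank correlations were chosen after the data were seen.

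Sums and intervals used numpy 2.4.6 and scipy 1.17.1 under Python 3.11.15, tables pandas 2.3.3, neighbours scanpy 1.11.5 with scikit-learn 1.9.0, and plots matplotlib 3.10.9. The tag reference and tag summary were not used here.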

Additional observations from a re-analysis of the deposited data

Results flagged for a closer look

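*S100a11* moved past 2-fold in opposite directions between E15 and pup in the stomach, with a log2 ratio of -1.12 in columnar cells (lower in the pup) and of 1.15 in smooth muscle (higher in the pup). Each side is 1 pooled sample, and the difference was not tested. The columnar value was -0.99, just under 2-fold, once cells under 1000 UMIs or above 10% mitochondrial UMIs were dropped.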

How the results depend on the processing

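No log2 ratio past 2-fold changed direction under any alternative run. With each cell's own CPM averaged, 27 of 31 such ratios stayed past 2-fold, without the 1% of cells highest for that gene 28, with the other cell filter or library size 30 each, and without cells whose 15 nearest neighbours lie mostly across birth 16 of 17. In stomach columnar cells the count of 2 genes higher became 1 with averaged CPM, without the top 1% of cells, with the other library size, at 3-fold and without cells with neighbours across birth, and the 1 lower became 0 in the filtered cells and at 3-fold. The 1 gene lower in E15 GE-SCJ squamous cells became 0 with averaged CPM, without the top 1% of cells and at 3-fold, and the 3 higher in stomach smooth muscle became 1 at 3-fold. With 10 UMIs as the minimum, 8 genes were higher in adult esophageal fibroblasts, 5 higher and 1 lower in pup stomach fibroblasts, 7 higher in stomach smooth muscle and 1 higher in pup esophageal over stomach fibroblasts. The cause was not tested beyond the stricter or looser thresholds. Levels per label were set against their counting intervals. Dropping the top cells of a gene tends to lower its level, and a smaller library size raises it. The counts that follow therefore do not compare the stability of levels with that of ratios. Without the top 1% of cells 57 levels left their counting interval and 33 did not. With averaged CPM 52 left it and 38 did not, and with the other library size 71 and 19. In the filtered cells 4 left it and 86 did not. The order of labels under these alternatives was not examined. No paired analysis was possible because each region and stage is 1 pooled sample. Depth limits *S100a4*, *S100a8*, *S100a9* and *S100a14* outside their main cells, where groups held a few UMIs each. Mice cannot be told apart within a tag, and cells may hold free RNA from other types.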
